A study of Sus scrofa domesticus with 28 samples.

Results

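CCL2, CCL19, IL6 and IL1A, 4 genes for inflammatory cytokines, were followed through skin and scar of the red Duroc pig, a breed whose deep wounds heal with thick, raised scars. Their probes were found by matching each array probe's transcript accession to pig RefSeq genes, which gave 7 of 43603 probes and 4 of the 3216 genes that could be named. CCL2 had 2 probes, of which the brighter (A_72_P035346) stands for the gene, IL6 had 3, and CCL19 (A_72_P150086) and IL1A (A_72_P165276) had 1 each. The rule used no measured value.

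CCL2 is a chemokine that draws monocytes out of the blood through the receptor CCR2, and CCL19 is a chemokine that guides mature dendritic cells and T cells through CCR7. IL6 signals through IL6R and the shared chain IL6ST to JAK kinases and STAT proteins in fibroblasts, leucocytes and endothelium. IL1A is made and stored by keratinocytes in healthy epidermis, is released when these cells are damaged, and acts through the IL-1 receptor and NF-kB, a route that can in turn induce CCL2 and IL6.

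The 28 biopsies came from 2 juvenile castrated male red Duroc pigs, numbered 49 and 50. RNA of each biopsy, labelled with Cy5, was hybridised against a universal pig reference RNA, labelled with Cy3, on its own array. Control skin gave 4 biopsies, the left (L) and right (R) side of each animal. Early scar, all of it sham-treated, gave 4 hyperpigmented (hyper) and 4 hypopigmented (hypo) biopsies. Mid scar and late scar each gave 2 biopsies, 1 per animal, of pressure-treated hyper, sham hyper, pressure-treated hypo and sham hypo scar. The titles also carry a number that grows from early to late scar, with no unit stated, which was not used as a time. This number also differs within some of the mid and late pairs of biopsies compared below. In mid and late scar every pressure biopsy came from the right side and every sham biopsy from the left, so treatment and side cannot be told apart. One title code was shared by all hyper biopsies and another by all hypo biopsies, their meaning is not stated, and pigmentation and this code cannot be told apart either. All replicates come from 2 animals, so a p-value here sets a difference against the variation among their biopsies, and says nothing of how other pigs would vary.

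Per array, 13707 to 24298 probes had a Cy5 signal well above background, with a median of 20322 or 46.6%. The lowest shares, 31.4% and 33.9%, belonged to late sham hypo 50L and late pressure hypo 50R. Keratinocyte markers, the defining genes of the labelled tissue, had a mean log2 ratio to the reference of 0.85 to 1.07 in control skin, from 9 measured genes. Skeletal muscle markers reached 5.14 in mid pressure hyper 49R and 5.56 in late pressure hyper 49R, against -0.74 to -0.52 in control skin. In such bulk samples, fewer cells of a type and less RNA per cell cannot be told apart.

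Levels below are log2 ratios of a biopsy to the reference RNA, so that 0 means equal signal, and they order biopsies for 1 gene but not genes against each other. Differences are log2 differences ± SE, with p-values from limma adjusted by Benjamini-Hochberg across the 18765 features tested, and a feature was called where its adjusted p was below 0.05. CCL2 and CCL19 were well above background on all 28 arrays, IL6 on 22 and IL1A on 13. No probe of the 4 genes was saturated on any array.

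Scar differed from control skin in all 4 genes, and not in 1 direction. CCL2 rose in early, mid and late scar, CCL19 rose in mid and late scar, IL6 rose in early and late scar, and IL1A fell in all 3 phases. In late scar CCL2 was 3.20-fold, CCL19 2.97-fold and IL6 2.18-fold the level of control skin, while IL1A was 1.63-fold lower. All of these folds depend on the processing. With each array centred on its median, the late log2 differences of CCL2 and CCL19 were 0.74 and 0.70, and neither was called. IL6 and IL1A gave dim signals, which the offset of 50 units added to every signal shrinks. Calls were common in these comparisons: 38.8% of all features were called in early, 33.8% in mid and 39.9% in late scar, against 3, 3 and 4 of the 4 genes. By direction, 24.1%, 22.2% and 26.6% of features were higher and 14.8%, 11.6% and 13.3% lower. The 3 comparisons share the control biopsies.

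**Figure D1:**
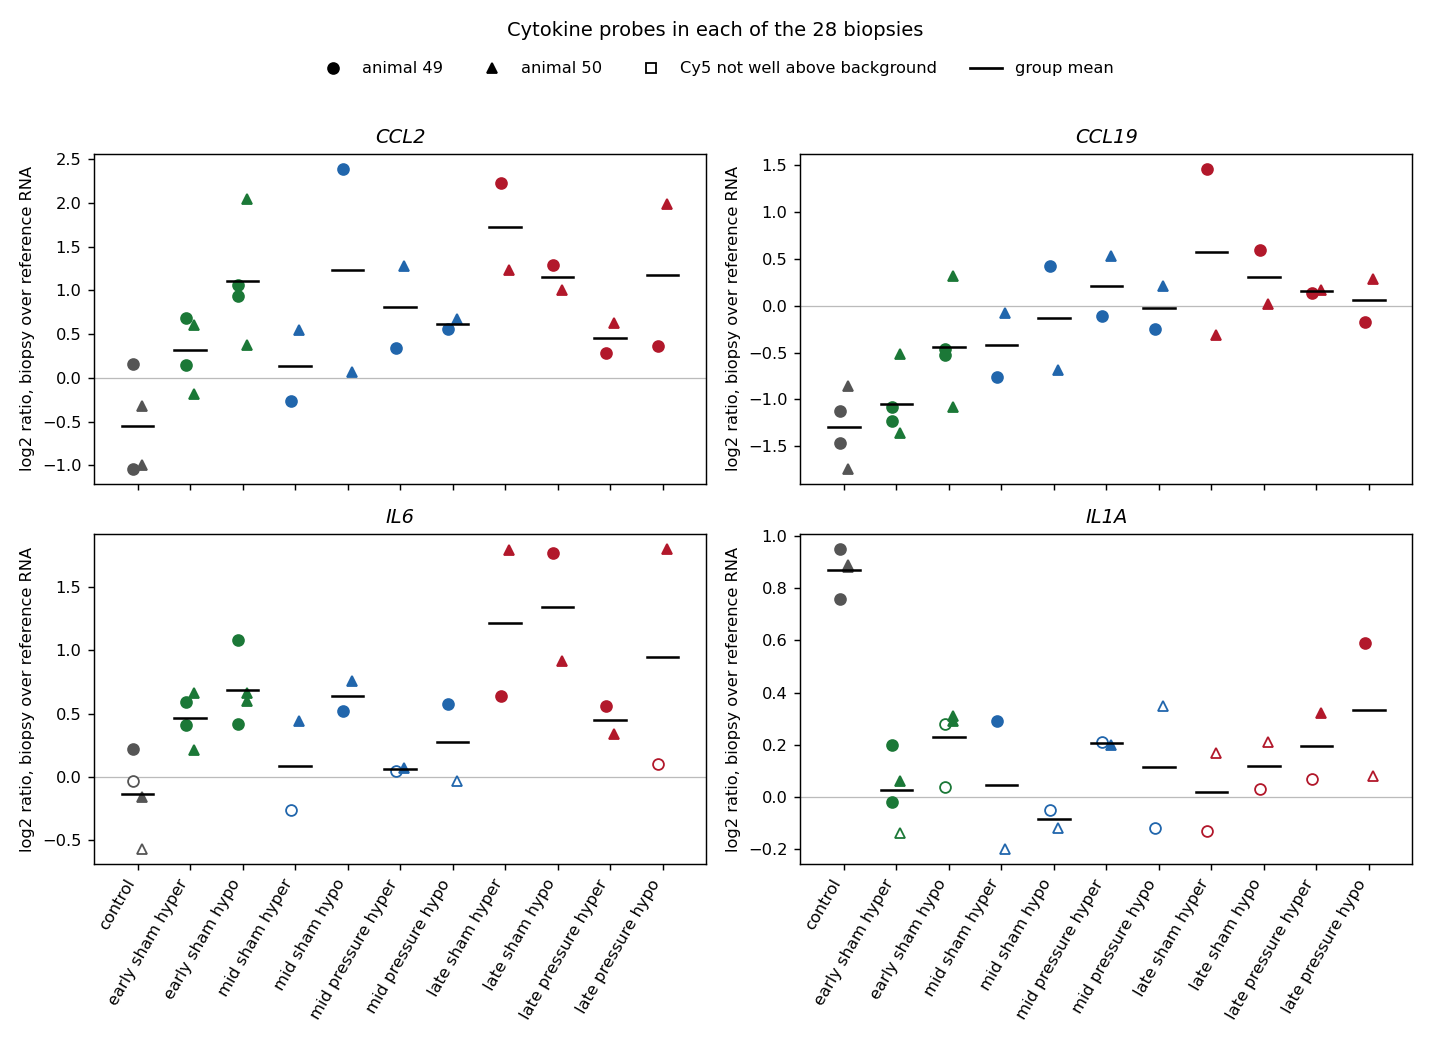
Log2 ratio of biopsy to reference RNA for CCL2, CCL19, IL6 and IL1A (4 panels) in each of the 28 biopsies, arranged by the 11 groups. Circles are animal 49, triangles animal 50, open symbols mark a Cy5 signal not well above background, and bars are group means. IL1A in the 4 control biopsies, at 0.76 to 0.95, lies above every scar biopsy, while IL6 in the 8 late biopsies runs from 0.10 to 1.80.

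The monocyte chemokine CCL2 was measured in control skin at -1.04 in 49R, 0.16 in 49L, -1.0 in 50L and -0.32 in 50R, a mean of -0.55 ± 0.58 (SD, n = 4). The 8 early scar biopsies ran from -0.18 through a median of 0.64 to 2.04, the 8 mid biopsies from -0.27 through 0.55 to 2.39, and the 8 late biopsies from 0.29 through 1.12 to 2.23. Only late scar stood wholly above control skin: control 49L, the highest of its group, overlapped the lowest early and mid biopsies. The difference from control was 1.26 ± 0.40 in early (adjusted p = 0.0162, limma), 1.25 ± 0.40 in mid (adjusted p = 0.0204, limma) and 1.68 ± 0.40 in late scar (adjusted p = 0.00235, limma). The early and mid calls were lost without control 49R (1.09 and 1.07, adjusted p 0.0661 and 0.0779) or without control 50L (1.1 and 1.09, adjusted p 0.0708 and 0.0881).

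No difference of CCL2 between scar phases was called in the model of all 28 biopsies. Mid sham minus early sham scar was -0.03 ± 0.40 (adjusted p = 0.978, limma), in a comparison where 6.41% of features and none of the 4 genes were called. Late minus mid scar was 0.43 ± 0.32 (adjusted p = 0.622, limma), and late sham minus early sham scar was 0.73 ± 0.40 (adjusted p = 0.194, limma). The last was called from the dimmer CCL2 probe (0.80, adjusted p = 0.0259, limma), and was 0.37 ± 0.47 against early left biopsies alone (adjusted p = 0.669, limma). In animal 49 alone, where each late sham group is a single biopsy, it was 1.05. The mean was lowest in control skin and, among scar groups, ran from 0.14 in mid sham hyper to 1.73 in late sham hyper scar. Neighbours in this order were closer than their spread: mid sham hypo had a mean of 1.23 with an SD of 1.65 over 2 biopsies.

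The lymphoid chemokine CCL19 was low in control skin, at -1.46 in 49R, -1.12 in 49L, -1.74 in 50L and -0.86 in 50R. Early scar ran from -1.36 through a median of -0.80 to 0.32, mid scar from -0.76 through -0.09 to 0.53, and late scar from -0.31 through 0.15 to 1.46. Early scar overlapped control skin, and all mid and late biopsies lay above it. Early scar was 0.55 ± 0.31 above control (adjusted p = 0.163, limma), mid scar 1.21 ± 0.31 (adjusted p = 0.00534, limma) and late scar 1.57 ± 0.31 (adjusted p = 4.86e-04, limma). Without a limit on the local backgrounds the early difference was 0.87 and called (adjusted p = 0.0299, limma).

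Between scar phases, CCL19 was the 1 gene of the 4 called in the model of all 28 biopsies, and that call was not stable. Late sham scar exceeded early sham scar by 1.18 ± 0.31, a 2.27-fold difference (adjusted p = 0.0122, limma), in a comparison where 9.88% of features were called higher and 10.1% lower. The 4 late sham biopsies were at 1.46 in hyper 49L, -0.31 in hyper 50L, 0.59 in hypo 49L and 0.02 in hypo 50L, so both high values came from animal 49. Without late sham hyper 49L the difference was 0.72 (adjusted p = 0.110), and without late sham hypo 49L it was 1.04 (adjusted p = 0.0587). In animal 50 alone, where each late sham group is a single biopsy, it was 0.51. The call was also lost under median centring (0.45, adjusted p = 0.401, limma), with the slide as a fixed block (1.15, adjusted p = 0.141, limma) or without the limit on local backgrounds (0.76, adjusted p = 0.363, limma). All mid and late sham biopsies came from the left side and early scar from both: against early left biopsies alone, a comparison added after the data were seen, late sham CCL19 was 0.91 ± 0.36 higher (adjusted p = 0.144, limma), with 2.56% of features called. The same comparison for mid sham scar gave 0.19 ± 0.36 (adjusted p = 0.861, limma). Late minus mid scar was 0.36 ± 0.25 (adjusted p = 0.583, limma).

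IL6 was dim, with a Cy5 signal over local background of 24 to 52 units in control skin and up to 180 in late scar. It was well above background in 2 of 4 control, 8 of 8 early, 5 of 8 mid and 7 of 8 late biopsies. Its control levels were -0.03 in 49R, 0.22 in 49L, -0.57 in 50L and -0.16 in 50R. Early scar ran from 0.21 through a median of 0.59 to 1.08, mid scar from -0.26 through 0.25 to 0.76, and late scar from 0.10 through 0.78 to 1.80. Every phase touched the range of control skin at its lower end, and 3 late biopsies stood far above the rest, at 1.77 in sham hypo 49L, 1.79 in sham hyper 50L and 1.80 in pressure hypo 50R.

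IL6 was higher than in control skin by 0.71 ± 0.27 in early (adjusted p = 0.0399, limma) and 1.13 ± 0.27 in late scar (adjusted p = 0.00237, limma), and by 0.40 ± 0.27 in mid scar (adjusted p = 0.257, limma). With an offset of 5 the early and late differences were 1.05 and 1.60, and in the authors' deposited log2 values 1.51 and 2.21. Late minus mid scar was 0.72 ± 0.22, with an unadjusted p of 0.00339 and an adjusted p of 0.320 (limma); 1 feature, 0.00533%, was called there. Late sham minus early sham scar was 0.70 ± 0.27 (adjusted p = 0.0663, limma), and was called under quantile scaling (0.82, adjusted p = 0.0304) and without 2 leucocyte-rich biopsies described below (1.0, adjusted p = 0.0293). The early call was lost when any of 7 biopsies was left out, namely control 49R, 50L or 50R, early hyper 49L, 50L or 49R, or early hypo 49L. Without control 50L the early difference was 0.55 (adjusted p = 0.171). The 3 IL6 probes did not give 1 answer: beside the brightest, A_72_P177826, which stands for the gene, A_72_P680394 gave 0.46 ± 0.17 in late scar (adjusted p = 0.0383, limma) and A_72_P537633 gave 0.26 (adjusted p = 0.311), and in early scar they gave 0.40 and 0.11 (adjusted p 0.0694 and 0.715). These 2 probes were well above background on 10 and 11 arrays, and A_72_P537633 was fitted on 27 arrays. The dimmer CCL2 probe, A_72_P675364, was higher in early, mid and late scar by 0.74, 0.81 and 1.35 (adjusted p 0.0182, 0.0129 and 2.17e-04, limma).

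**Figure D2:**
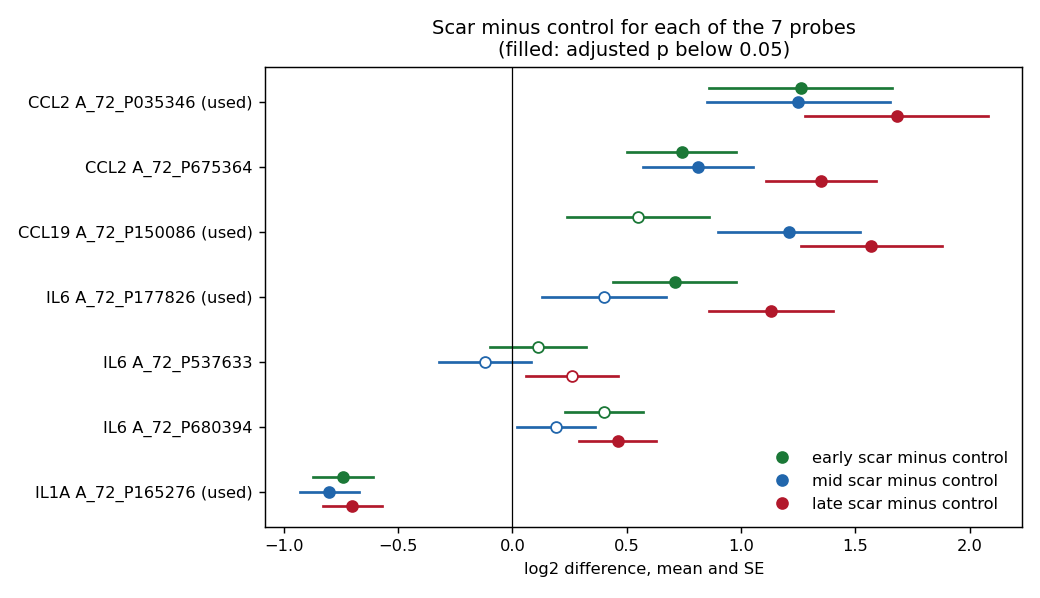
Log2 difference of early, mid and late scar from control skin for each of the 7 probes of the 4 genes, with bars of 1 SE. Filled points have an adjusted p below 0.05. Both CCL2 probes are filled in all 3 phases, whereas IL6 probe A_72_P537633 is filled in none.

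IL1A showed the narrowest spread in control skin, at 0.76 in 49R, 0.95 in 49L, 0.88 in 50L and 0.89 in 50R (mean 0.87 ± 0.08, SD, n = 4). Early scar ran from -0.14 through a median of 0.13 to 0.31, mid scar from -0.20 through 0.08 to 0.35, and late scar from -0.13 through 0.12 to 0.59. No scar biopsy reached the lowest control biopsy, and the highest was late pressure hypo 49R. The difference from control was -0.74 ± 0.13 in early (adjusted p = 1.24e-04, limma), -0.80 ± 0.13 in mid (adjusted p = 1.35e-04, limma) and -0.70 ± 0.13 in late scar (adjusted p = 2.25e-04, limma). As fitted these are 1.67-fold, 1.74-fold and 1.63-fold lower levels, and the call held without any 1 of the 28 arrays.

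IL1A was well above background in 4 of 4 control, 5 of 8 early, 2 of 8 mid and 2 of 8 late biopsies, so that much of scar lay near the limit of detection. With an offset of 5 the 3 differences were -1.16, -1.25 and -1.07, and in the authors' deposited log2 values -1.42, -1.84 and -1.66. Between phases no difference of IL1A was called: late sham minus early sham scar was -0.06 ± 0.13 (adjusted p = 0.768, limma) and late minus mid scar 0.09 ± 0.10 (adjusted p = 0.753, limma). It was not well above background in any of the 4 late sham biopsies or the 4 mid hypo biopsies.

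How arrays were scaled mattered for the chemokines. When each array was centred on its median in place of the loess curve, the median of all features in late scar minus control moved from 0.10 to -0.11. The share of calls that were higher in scar moved from 62% to 47.4% in early, 65.7% to 29% in mid and 66.6% to 19.7% in late scar, and with quantile scaling between arrays it was 56%, 54.8% and 56.4%. Under median centring CCL2 was 0.99, 0.72 and 0.74 above control in early, mid and late scar (adjusted p 0.101, 0.241 and 0.209) and CCL19 0.71 and 0.70 in mid and late scar (adjusted p 0.174 and 0.159), none of them called. IL6 in late scar (0.83, adjusted p = 0.00245) and IL1A in early, mid and late scar (-0.59, -0.57 and -0.48) were still called. Within single slides holding both kinds of biopsy, late scar minus control was 1.29 to 3.02 for CCL2, 1.58 to 1.89 for CCL19, 1.13 to 1.83 for IL6 and -0.89 to -0.68 for IL1A, over 3 slides each. These values use the same loess ratios, so they cannot decide how scaling matters. Each of the slides held 1 late biopsy. The 3.02 for CCL2 came from late pressure hypo 50R, where 33.9% of probes were well above background.

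**Figure D3:**
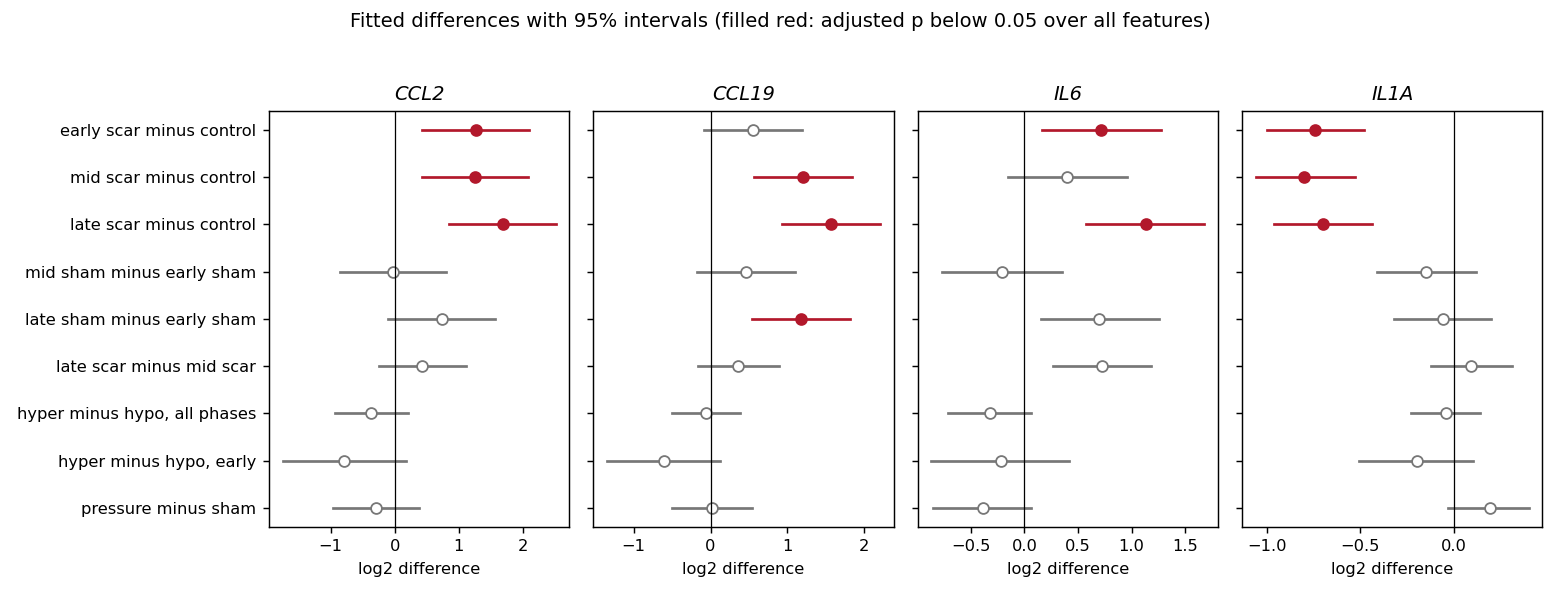
Fitted log2 differences of the 4 genes in 9 comparisons, with 95% intervals. Filled red points have an adjusted p below 0.05. Calls lie in the comparisons with control skin and, for CCL19, in late sham minus early sham scar, and the intervals for hyper minus hypo and pressure minus sham scar all include 0.

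Of the receptors, IL6ST, the signalling chain shared by the IL-6 family, rose in early, mid and late scar, by 0.97 ± 0.21, 0.75 ± 0.21 and 0.98 ± 0.21 (adjusted p 0.00111, 0.00949 and 0.00103, limma). IL6R, which binds IL6 itself, fell in early and mid scar by 0.34 and 0.33 (adjusted p 0.0363 and 0.0491, limma) and was at -0.28 in late scar (adjusted p = 0.0852). It was well above background on only 10 arrays, 3 of them of control skin, so much of scar lay near the limit of detection. CCR7, the receptor of CCL19, was at 0.17 in early and 0.39 in mid scar (adjusted p 0.416 and 0.0528) and rose by 0.45 ± 0.15 in late scar (adjusted p = 0.0244, limma). CCR2, the receptor of CCL2, was at -0.10, 0.00 and -0.18 in early, mid and late scar (adjusted p 0.569, 0.984 and 0.272). ACKR1, a chemokine-binding protein of venular endothelium and red cells, rose in late scar by 1.01 ± 0.23, and CCR1, a chemokine receptor of myeloid cells, by 2.39 ± 0.85 (adjusted p 0.00177 and 0.0299, limma). Over all features 24.1%, 22.2% and 26.6% were higher and 14.8%, 11.6% and 13.3% lower in early, mid and late scar. Of the 8 measured receptors 1 was higher and 1 lower in early and in mid scar, and 4 were higher in late scar. Their medians were 0.27, 0.38 and 0.50 against 0.11, 0.10 and 0.10 over all features. Under median centring 1, 0 and 0 of them were higher and none lower, and IL6ST in late scar was 0.26 (adjusted p = 0.274). The receptors IL1R1, IL1R2 and IL1RAP and the inhibitor IL1RN were not among the measured features.

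Of 7 measured genes of IL-6 signalling, 3 rose and 1 fell in early scar, and 2 rose in each of mid and late scar, with medians of 0.29, 0.15 and 0.16. Under median centring 1 of the 7 rose and 1 fell in each phase. Over all features, before that centring, 24.1%, 22.2% and 26.6% rose and 14.8%, 11.6% and 13.3% fell. STAT3, the factor that IL6 activates most directly, fell in early scar by 0.37 (adjusted p = 0.0225, limma). The kinase JAK1 rose by 0.46, 0.66 and 0.68 (adjusted p 0.0312, 0.00428 and 0.00259, limma), but was at 0.10, 0.03 and -0.41 under median centring. SOCS3, a feedback inhibitor of this pathway, was well above background in 0 of 4 control, 7 of 8 early, 2 of 8 mid and 1 of 8 late biopsies. It passed the filter of at least 4 arrays only through early scar, where it is 1 of the 3 that rose (0.29). That rise is therefore not taken as support for a change of this pathway. Among 4 measured relatives of IL1A, IL1B2, a close copy of IL1B in the pig, rose by 0.92 in mid and 1.15 ± 0.28 in late scar (adjusted p 0.0165 and 0.00306, limma), and IL1B, well above background in 0 of 4 control and 2 of 8 late biopsies, was at 0.39 in late scar (adjusted p = 0.168). Signal shared between these near-identical copies was not tested.

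The other chemokines moved in both directions. Of 20 measured, 1 rose and 3 fell in early, 2 rose and 2 fell in mid, and 1 rose and 1 fell in late scar, with medians of 0.03, 0.08 and 0.31. Under median centring 1, 1 and 0 rose and 5, 4 and 3 fell. Over all features 24.1%, 22.2% and 26.6% rose and 14.8%, 11.6% and 13.3% fell. CCL8, another monocyte chemokine, rose in early scar by 1.54 ± 0.31 and in mid scar by 0.90 (adjusted p 5.98e-04 and 0.0256, limma). CCL28, a chemokine of epithelia, fell by 2.59, 1.52 and 1.54 in early, mid and late scar (adjusted p 1.09e-05, 0.00255 and 0.00160, limma), and CCL27, made by keratinocytes, fell by 2.47 and 1.06 in early and mid scar (adjusted p 3.35e-05 and 0.0327, limma). From early to late sham scar 6 of the 20 were higher and 0 lower, among them CCL27 by 3.09 ± 0.37 and CXCL12, which holds leucocytes and stem cells in tissues, by 1.03 (adjusted p 1.95e-04 and 0.0236, limma). Under median centring this last count was 2 higher and 1 lower. Over all features, before that centring, 9.88% were higher and 10.1% lower from early to late sham scar.

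Of 14 measured genes of the NF-kB route and its targets, 3 rose and 3 fell in early, 4 rose and 3 fell in mid, and 3 rose and 2 fell in late scar, with medians of -0.09, -0.06 and 0.13. Over all features 24.1%, 22.2% and 26.6% rose and 14.8%, 11.6% and 13.3% fell, so these counts are not read as a result about this route. ICAM1, an adhesion molecule that holds leucocytes to endothelium, rose in late scar by 1.33 ± 0.32, VCAM1, an adhesion molecule of like role, by 1.47 ± 0.42, and IRAK4, a kinase of IL-1 and Toll-like receptors, by 0.71 ± 0.13 (adjusted p 0.00273, 0.00834 and 3.05e-04, limma). CHUK, a kinase that releases NF-kB, and TLR4, the receptor of endotoxin, fell by 0.80 and 0.71 (adjusted p 1.62e-04 and 0.00335, limma). Under median centring 0 of the 14 were higher in late scar and 3 lower. Of 9 other measured cytokines, 2 rose and 2 fell in early scar, and 1 rose and 1 fell in each of mid and late scar, with TNFSF10, a death-receptor ligand, higher in all 3 phases, by 0.98 in early and 0.81 in late scar (adjusted p 9.32e-04 and 0.00418, limma). Under median centring TNFSF10 was called in early scar alone (0.74, and 0.34 and 0.06 in mid and late scar), and 2, 0 and 0 of the 9 rose and 1, 1 and 2 fell.

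The next question was whether hyper and hypo scar differed in these genes. None of the 4 was called over all phases, where 0.0107% of features were called, nor within early, mid or late scar. Hyper minus hypo scar was -0.37 ± 0.28 for CCL2 (95% interval -0.94 to 0.21), -0.06 ± 0.21 for CCL19 (-0.50 to 0.38), -0.32 ± 0.19 for IL6 (-0.71 to 0.06) and -0.04 ± 0.09 for IL1A (-0.23 to 0.14), with adjusted p of 0.998 or 0.999 in limma. At an unadjusted p below 0.05, 595 features passed. The upper ends of these intervals, in favour of hyper scar, are 0.38 or less for each of the 4 genes, whereas the lower ends reach -0.94 for CCL2 and -0.71 for IL6.

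**Figure D4:**
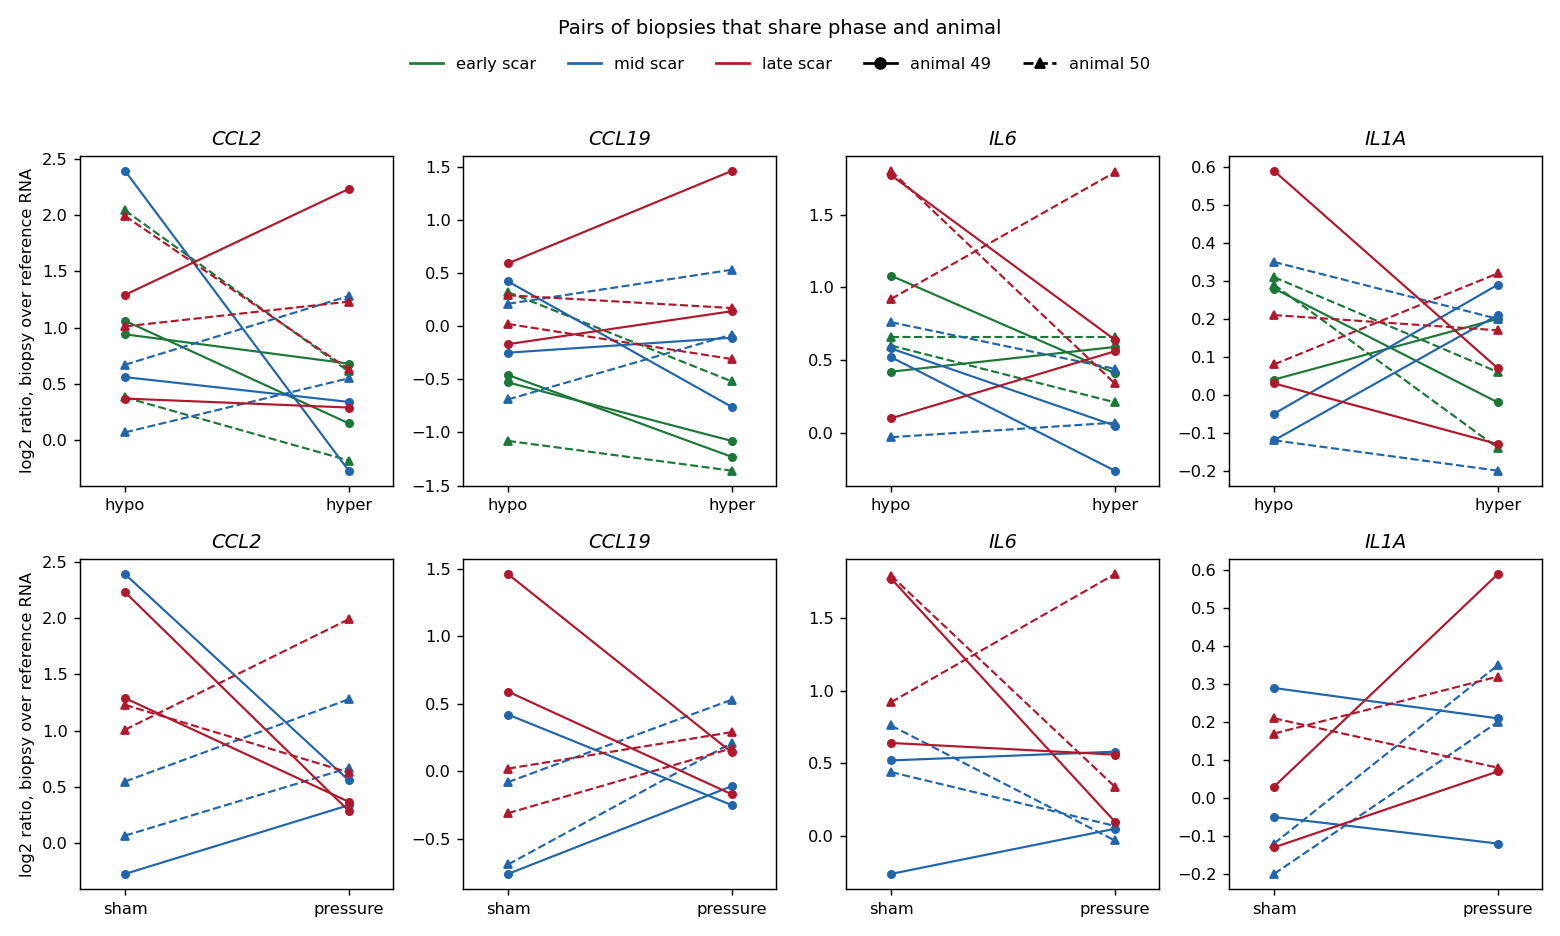
Log2 ratios of the 4 genes in paired biopsies, joined by lines. The top row joins hyper and hypo biopsies of the same phase, animal and side, and the bottom row joins pressure and sham biopsies of the same phase, animal and pigmentation. CCL2 and CCL19 are lower in the hyper biopsy in all 4 early pairs, and the pressure pairs run both ways.

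Early scar was the phase where biopsies of 1 animal and side all leaned one way. CCL2 in early hyper scar was 0.68 in 49L, 0.15 in 49R, 0.61 in 50L and -0.18 in 50R, and in early hypo scar 0.94, 1.06, 2.04 and 0.38 in the same order. CCL19 in early hyper scar was -1.23, -1.08, -0.52 and -1.36, and in early hypo scar -0.46, -0.53, 0.32 and -1.08, again for 49L, 49R, 50L and 50R. In all 4 pairs of an animal and side the hyper biopsy was the lower, by 0.26 to 1.42 for CCL2 and 0.28 to 0.84 for CCL19, while the groups overlapped for both genes. The fitted differences were -0.79 ± 0.46 for CCL2 and -0.61 ± 0.35 for CCL19, with unadjusted p of 0.101 and 0.0991 and adjusted p of 0.995 each (limma), and 0% of features were called here, with 870 at an unadjusted p below 0.05. Macrophage and dendritic cell markers moved with this split: the mean of their 13 measured genes was -0.41 to -0.01 in early hyper and 0.14 to 0.89 in early hypo scar, and their part in the result was not tested. For IL6 and IL1A the hyper biopsy was the lower in 3 of 4 early pairs, but for IL6 1 of these was level as rounded, with both biopsies of 50L at 0.66.

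Later pairs had no common direction. Of 4 mid pairs the hyper biopsy was lower in 2 for CCL2, 1 for CCL19, 3 for IL6 and 2 for IL1A, and of 4 late pairs in 2, 2, 2 and 3. In late scar 5.36% of features were called between hyper and hypo, and none of the 4 genes was among them. The change of the pigment difference from early to late scar was called for 5.04% of features and for none of the 4 genes. Over all 12 interaction tests of the 4 genes, of pigment by phase, pressure by pigment and pressure by phase, the lowest unadjusted p was 0.129. In early scar, where no pressure was labelled, left minus right scar was 0.71 ± 0.44 for CCL2 and 0.54 ± 0.34 for CCL19 (adjusted p 1.0 each, limma; unadjusted p 0.124 and 0.130), with 0% of features called and 267 at an unadjusted p below 0.05. The labels name no single scar, and biopsies of a pair may come from different scars.

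The last comparison asked whether pressure changed these genes in mid and late scar. None of the 4 was called, and 0% of all features were, with 957 at an unadjusted p below 0.05. Pressure minus sham scar was -0.30 ± 0.32 for CCL2 (95% interval -0.97 to 0.38, adjusted p = 0.944), 0.02 ± 0.25 for CCL19 (-0.50 to 0.54, adjusted p = 0.995), -0.39 ± 0.22 for IL6 (-0.85 to 0.06, adjusted p = 0.906) and 0.19 ± 0.10 for IL1A (-0.03 to 0.40, adjusted p = 0.906), all from limma. In the authors' deposited values the IL1A difference was 0.73 (adjusted p = 0.769, limma). Over the 16 tests of pigmentation or pressure within mid or late scar alone, none was called and the lowest unadjusted p was 0.0745, for IL6 under pressure in late scar (-0.58 ± 0.31). These intervals leave room for changes of either sign in the chemokines.

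Pressure pairs of CCL2 split by animal. In animal 49 the pressure biopsy exceeded the sham biopsy by 0.61 in mid hyper scar and was lower by 1.84 in mid hypo, 1.94 in late hyper and 0.92 in late hypo scar. In animal 50 it was higher by 0.73 in mid hyper, 0.61 in mid hypo and 0.97 in late hypo scar and lower by 0.59 in late hyper scar. CCL19 ran the same way, higher under pressure in 1 of 4 pairs of animal 49 and 4 of 4 pairs of animal 50. Fitted in each animal alone, the pressure effect on CCL2 was -1.02 in animal 49 and 0.43 in animal 50. That on CCL19 was -0.52 in animal 49 and 0.57 in animal 50. In such a fit every mid and late group is a single biopsy, so the spread comes from control skin and early scar alone. No p-value is given for these effects.

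Tested directly, the pressure effect in animal 50 exceeded that in animal 49 by 1.45 ± 0.58 for CCL2 (95% interval 0.25 to 2.66) and by 1.09 ± 0.45 for CCL19 (0.15 to 2.03). The unadjusted p of 0.0205 and 0.0250 did not pass over all features (adjusted p 0.442 and 0.463, limma), where 0% were called and 1766 reached an unadjusted p below 0.05. This test was chosen after the pairs had been seen. Without mid sham hypo 49L and late sham hyper 49L, the 2 biopsies of highest CCL2, the differences were 0.69 and 0.38, and without late sham hyper 49L or 50L alone that of CCL19 was 0.72. For IL6 and IL1A the same difference was -0.09 ± 0.45 and 0.07 ± 0.21 (adjusted p 0.974 and 0.955, limma). IL6 was higher under pressure in 2 of 4 pairs of animal 49 and 1 of 4 of animal 50, and IL1A in 2 of 4 and 3 of 4.

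The 2 highest biopsies of CCL2, 1 of them also the highest of CCL19, had high macrophage and dendritic cell markers. They are called leucocyte-rich here for that list alone. In mid sham hypo 49L, with CCL2 at 2.39 and CCL19 at 0.42, the macrophage and dendritic cell markers averaged 1.13, and in late sham hyper 49L, with CCL2 at 2.23 and CCL19 at 1.46, they averaged 1.21. Control skin ranged from -1.26 to -0.39, and early, mid and late scar from -0.41 to 0.89, -0.42 to 1.13 and -0.63 to 1.21. Late pressure hypo 50R had CCL2 at 1.99 but these markers at -0.21. Without the 2 named biopsies of animal 49, a choice made after their values were seen, the pressure effect on CCL2 was 0.19 and late sham minus early sham CCL19 was 0.69. Both are sham biopsies, so leaving them out raises pressure minus sham for CCL2. A pressure-treated mid biopsy with the macrophage and dendritic cell markers at 1.12 was kept, so this setting is no even check of those markers. The T and NK cell markers, 10 measured, averaged -0.25 to -0.03 in control skin and -0.06 to 0.45 in late scar.

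**Figure D5:**
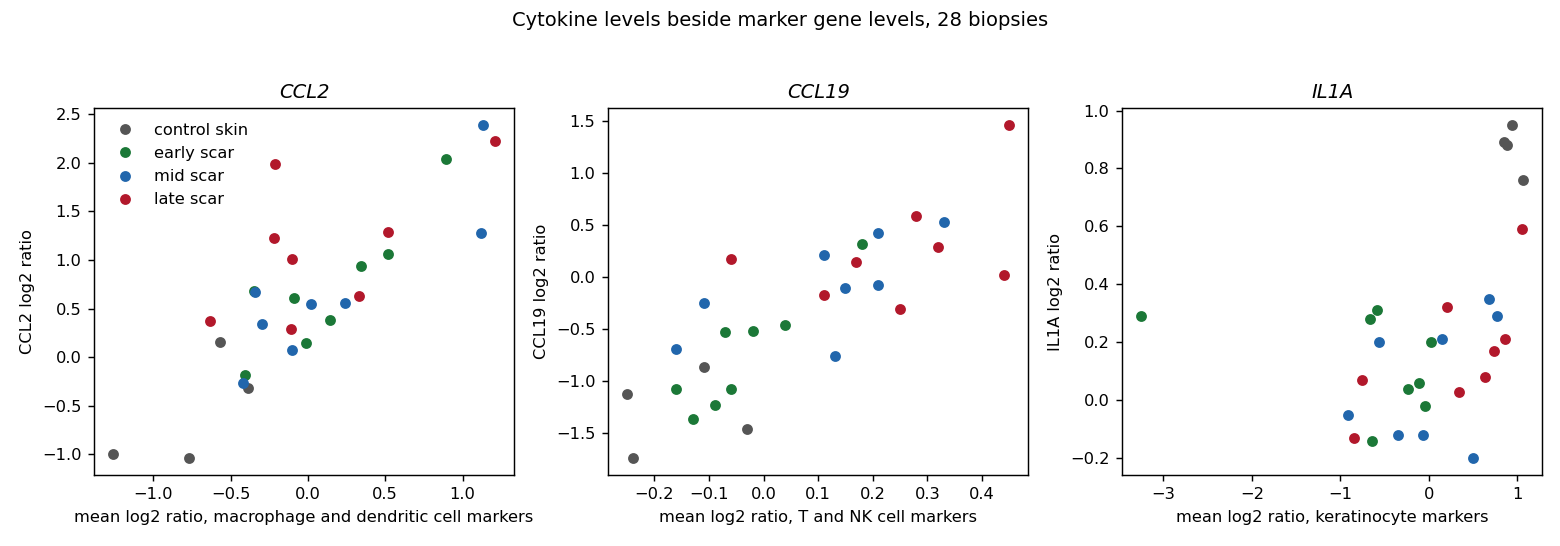
Log2 ratio of CCL2 against the mean of 13 macrophage and dendritic cell markers, of CCL19 against 10 T and NK cell markers, and of IL1A against 9 keratinocyte markers, 1 point per biopsy, coloured by control skin and scar phase. CCL2 and CCL19 rise along the marker means shown, which are those of highest r for each among the marker lists. The 4 control biopsies have the highest IL1A at keratinocyte marker means that some late biopsies also reach.

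The marker counts stand beside 24.1%, 22.2% and 26.6% of all features that rose and 14.8%, 11.6% and 13.3% that fell in early, mid and late scar. As a set, 10 of the 13 macrophage and dendritic cell markers rose in early, 8 in mid and 5 in late scar and 0 fell, with medians of 0.88, 0.89 and 0.89. Under median centring 3, 0 and 0 rose. Of 10 T and NK cell markers 0, 3 and 4 rose and 1, 0 and 0 fell, led in late scar by GZMB, a granule protease of killer cells, at 0.98 ± 0.19 (adjusted p = 4.16e-04, limma). Under median centring none of them rose and 1 fell in each phase. Their mean had an r of 0.67 with CCL2 and 0.81 with CCL19, and the macrophage and dendritic cell mean 0.80 and 0.73. Other leucocyte lists had lower values. The mean of 3 mature dendritic cell markers had an r of 0.39 with CCL2 and 0.16 with CCL19. The mean of 5 neutrophil markers had -0.18 and -0.28, and the 1 measured B cell marker 0.30 and 0.24. Of 7 endothelial markers 5, 5 and 6 rose (4, 4 and 1 under median centring) and 0 fell. Their mean was -1.34 to -0.49 in control skin and -0.17 to 0.92 in late scar, and over the 28 biopsies it had an r of 0.61 with CCL2, 0.59 with CCL19, 0.59 with IL6 and -0.57 with IL1A. Of 9 fibroblast markers 9, 6 and 5 rose (9, 6 and 3 under median centring) and 0 fell, and their mean had an r of 0.31 or less with CCL2, CCL19 and IL6 and -0.49 with IL1A. Keratinocyte markers were split: 5 of 9 fell in early, 3 in mid and 4 in late scar and 0 rose, with medians of -1.33, -1.0 and -1.41. The 4 called in late scar were EPCAM, CDH1, CLDN4 and IVL, at -2.19, -2.15, -1.75 and -1.41. CLDN4 was well above background on 9 arrays, 4 of them of control skin. In late scar KRT2, DSG1, LGALS7 and SFN were 1.04, 0.92, 0.62 and 0.60 above control, none of them called. The mean of the 9 had an r of 0.42 with IL1A over the 28 biopsies. This mean was -3.25 to 0.03 in early scar, below the 0.85 to 1.07 of control skin. In late scar it was -0.84 to 1.05, which overlapped control skin while IL1A did not. The part of these cell types in the levels of the 4 genes was not tested.

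Over the 28 biopsies, which share 2 animals, 1 reference RNA and the difference between skin and scar, CCL2 and CCL19 went together more closely than any other pair of the 4 genes (Pearson r = 0.81 across biopsies, and 0.72 over the 24 scar biopsies). CCL2 and IL6 had an r of 0.60 (0.45 in scar), CCL19 and IL6 0.41 (0.20), and IL1A was at -0.52, -0.48 and -0.53 against CCL2, CCL19 and IL6 (-0.14, -0.10 and -0.32 in scar). These values are descriptions, and those over all 28 biopsies include the step from control skin to scar.

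Among 2384 genes with a symbol and no missing value, those most like CCL2 over the 28 biopsies were ICAM1, the leucocyte adhesion molecule (r = 0.93), LGALS9, a galectin (0.88), and PIK3R5, B2M and HHEX. Those most like CCL19 were PARP12 (0.91), an interferon-induced enzyme, PSMB9 (0.90), a subunit of the immunoproteasome, VCAM1 (0.90), LGALS9 (0.87) and B2M (0.87), the light chain of class I histocompatibility molecules, so that LGALS9 and B2M stood in both lists. IL6 had no close companion: its highest values were 0.69 for IRF1, an interferon response factor, 0.68 for SLA-DMA and for IRF7, 0.67 for CLDN5, a tight junction protein of endothelium, and 0.66 for HYAL2. Those most like IL1A were LOC404703 (0.87), CROT (0.83), KRT31, a hair keratin (0.82), PSORS1C2 (0.82) and CA6 (0.81).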

How the data were processed

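Intensities were deposited by the authors as Agilent Feature Extraction 10.7.1.1 scans, per the file headers, on 7 slides of 4 arrays. The authors also deposited log2 values; they matched log2 of processed Cy5 over processed Cy3 intensity within 0.001 for 100% of probes compared, and their centring is not stated. Genome build is not given in the sources used here.

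Median spot intensities were corrected by normexp (offset 50) in limma 3.58.1 (R 4.3.3). Local backgrounds were capped at the 99th percentile of each array and channel, a departure from the plan. Loess within arrays, exclusion of outlier spots (0.532% of feature values missing) and averaging of duplicate spots followed. Probes with Cy5 well above background on at least 4 arrays were kept (24510), and the brightest stood for a gene, giving 18770 features, 18765 of them tested and 2646 named. A single model held a mean for each of 11 groups plus a block for the animal, as same-numbered biopsies came from the same animal. It was tested on simulated data.

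The 4 genes, the pathway and marker lists and the comparisons were chosen with earlier results of these data known. Named were the 4 genes with every probe, their receptors and IL1RN, up to 4 called genes of lowest p per list, and the 5 genes of highest Pearson r to each (not all are described); IL1B was named after its values were seen.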

Additional observations from a re-analysis of the deposited data

Results flagged for a closer look

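IL1A in early hypo scar had 1 biopsy apart from the rest. Its log2 ratio was 0.04 in 49L, against 0.28, 0.29 and 0.31 in the other 3 biopsies, a gap beyond Dixon's 95% limit for 4 samples. Of 24 groups of biopsies examined in this way for the 4 genes, this was the 1 that stood out, and chance alone gives about 1 in 20.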

How the results depend on the processing

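Besides leaving out each of the 28 arrays, 20 settings were tried; normexp offset 5, the other probes, and leaving out the 2 leucocyte-rich 49L biopsies were chosen after seeing the data, as were the terms for side and for the animal in the pressure effect and the comparison with early left biopsies alone. The number of arrays and the dim signal of IL6 and IL1A limit the precision. The fall of IL1A in all 3 phases and the rise of IL6 in late scar kept their call under each setting that gave a value, except that IL6 probe A_72_P537633 alone gave 0.26 in late scar; IL1A had no value where 14 arrays well above background were required. Without the animal as a block, no call of the 4 genes changed (IL6 in early scar 0.71, adjusted p = 0.0361), and pairing comes from the shared animal.

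Early, mid and late CCL2 were not called under median centring (0.99, 0.72 and 0.74), nor early and mid CCL2 with the slide as a fixed block (1.31 and 1.09) or in animal 50 alone (1.37 and 1.3). CCL19 was not called in mid scar under median centring (0.71), with slides fixed (1.12) or in animal 50 alone (1.3), nor in late scar under median centring (0.70) or in animal 50 (1.35), and in early scar it was called without the cap on backgrounds (0.87). IL6 in early scar was not called without the cap (0.41), under quantile scaling (0.64), without the filter (0.71), with the mean of its probes (0.41), in animal 49 alone (0.53) or from its other probes (0.40 and 0.11), and A_72_P537633 turned its mid value to -0.12. CCL2 under pressure was -1.02 in animal 49, and turned to 0.43 in animal 50 and to 0.19 without the leucocyte-rich biopsies. CCL19 hyper minus hypo turned to 0.04 without the cap and 0.20 under median centring. CCL19 under pressure turned to -0.02 without the cap and under quantile scaling, and was -0.52 in animal 49. In either animal alone every mid and late group is a single biopsy, so the spread there comes from control skin and early scar. IL1A hyper minus hypo turned to 0.26 in the deposited values.

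CCL19 in late minus early sham scar lost its call in 6 settings, given with the result, among them animal 50 alone. Mid minus early sham CCL19 was 0.66 in animal 49 alone, where each mid sham group is a single biopsy. Uncalled values near 0 also turned sign. Mid minus early sham CCL2 was 0.36 in animal 49, 0.05 without the cap, 0.06 with the mean of probes, 0.10 under quantile scaling and 0.15 from the dimmer probe, and IL6 was 0.07 in animal 50 and 0.03 without the cap. Late minus early sham CCL2 was -0.07 and late minus mid CCL19 -0.01 under median centring. Late minus early sham IL1A was 0.02 without the leucocyte-rich biopsies, 0.06 in animal 50 and 0.04 under median centring, and early hyper minus hypo IL1A was 0.08 in the deposited values. In animal 49 alone, CCL19 hyper minus hypo in late minus early scar was 1.25 and CCL2 hyper minus hypo in mid scar was -1.44. CCL2 and CCL19 under pressure in late scar were -1.43 and -1.04 there. These values rest on single biopsies in each mid and late group. The cause of these changes was not tested.

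Leaving out 1 array at a time gave 1.09 to 1.51 for early and 0.94 to 1.56 for mid CCL2 against control, and 0.55 to 0.85 for early IL6. For CCL2 the range was -0.65 to 0.60 in mid minus early sham scar and -0.61 to 0.01 under pressure. For CCL19 it was -0.25 to 0.12 in hyper minus hypo, -0.21 to 0.25 under pressure and 0.72 to 1.65 in late minus early sham scar. IL6 in late minus early sham scar gave 0.41 to 1.0 and was called in 4 of 28 runs. IL1A gave -0.10 to 0.01 in hyper minus hypo and -0.14 to 0.02 in late minus early sham scar. Where the difference between animals in the pressure effect was tested, the ranges were 0.96 to 1.94 for CCL2 and 0.72 to 1.48 for CCL19.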
